A study of Arabidopsis thaliana with 24 samples.

Results

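The 5 genes described here are used as markers of leaf senescence in Arabidopsis thaliana: SAG29 (AT5G13170, also named SWEET15), WRKY53 (AT4G23810), WRKY6 (AT1G62300), SAG101 (AT5G14930) and AT2G25625, known as CHLOROPLAST VESICULATION (CV). They were named as a set of senescence markers, with earlier results of these data known. Each is measured by 1 probe set, a group of short probes against the 3' end of its transcript, out of 22746 that were tested. The levels were followed in all 12 groups of a glutathione feeding experiment on wild-type Columbia plants, with 2 arrays per group and 24 in all.

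Pots were watered from below with 25 ml once a week from week 1 to week 5 after sowing. They received water alone, 1 mM oxidised glutathione (GSSG), 2 mM reduced glutathione (GSH) or 3 mM NH4NO3, the salt that the treatment protocol writes with its atoms in another order. GSSG consists of glutathione units linked by a disulfide bond, so the GSSG and GSH solutions carried equal amounts of glutathione. Plants of every group shared the same genotype, soil and long-day light. At 3 weeks (3W) the sample was the aerial parts with the shoot apex, whereas at 4 weeks (4W) and 5 weeks (5W) it was fully expanded leaf blades. A 4W to 5W difference therefore compares like tissue, and a 3W to 4W difference changes tissue and age together, which cannot be told apart. Because feeding went on weekly, age and the amount fed also change together between harvests in fed groups, and cannot be told apart either. Replicates are numbered, and the titles carry a second number that all 4 waterings of a replicate number share within a harvest. Its meaning is not given and it was not used, and nothing says whether replicates came from separate pots. The p-values therefore set differences between group means against a spread between replicate arrays that can be only technical variation.

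Leaf senescence is the ordered dismantling of a leaf, in which chloroplasts are broken down and their nitrogen and sugars are moved to growing organs. Transcription factors act early in it, among them WRKY53 and WRKY6, and enzymes, transporters and breakdown factors follow. Leaf age, nitrogen supply and stress all influence when it begins. WRKY53 and WRKY6 belong to the plant-specific WRKY family, which binds the W-box promoter element and also serves in defence. SAG101 was first described as an acyl hydrolase that promotes senescence, and is a lipase-like partner of the immune regulator EDS1. SAG29 is a plasma-membrane sucrose transporter. CV is a small protein that enters chloroplasts and sends chloroplast proteins in vesicles to the vacuole.

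Signals are on the arrays' linear intensity scale, and every array had been scaled to nearly the same trimmed mean, 500.044 to 500.055. The 4 replicate 2 arrays of 4W stood apart in quality controls. For 1 of the actin controls their ratio of 3' to 5' signal, which rises as RNA degrades, was 4.29 to 4.81 against 2.65 to 3.80 on the other 20 arrays. For the other actin control it was 15.3 to 19.9, within the 10.7 to 29.5 of the other arrays. Their cre spike signal was 44895 to 61671 against 25079 to 40898. As a low-signal reference, the brightest probe set of the bacterial trp control, which is not a plant transcript, read between 3.28 and 50.0. Of the leaf and tissue markers looked for, only 1 of each list could be named on the array. The mesophyll marker RCA (Rubisco activase) had group means of 12310 to 16003 at 3W and 29250 to 43056 in blades. The shoot apex marker CLV3 was dim everywhere, with group means of 2.45 to 23.1, and it gave no check of the apex. In whole-tissue RNA, fewer cells of a type and less RNA per cell cannot be told apart.

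Between 4W and 5W blades 1 of the 5 markers, CV, passed the test over the waterings, 4 of 5 were higher in 4W blades than in 3W aerial parts, and none passed against water. Limma, a linear model with moderated variances, was fitted to log2(signal + 16), and a gene was called when its p after Benjamini-Hochberg adjustment over all 22746 probe sets was under 0.05. Changes are differences on that log2 scale with their standard error (SE), and they understate the change of dim genes. CV rose between 4W and 5W blades over the 4 waterings, SAG29 rose between those harvests under GSH, and WRKY53, WRKY6, SAG101 and CV were higher in 4W blades than in 3W aerial parts. Of all probe sets, 29.7% were called between 4W and 5W over the waterings (16.1% as higher) and 4.34% under GSH (2.03% as higher). Between 3W and 4W 55.9% were called (26.3% as higher). Against water, 0 of 45 gene-by-solution-by-harvest tests passed, with 4 at an unadjusted p under 0.05. Of all probe sets 2.22% to 13.2% had such a p in these comparisons. Over the mean of the 3 harvests 0 of 15 passed, with 0 at an unadjusted p under 0.05. For all probe sets that share was 7.20% to 9.61%. The arrays compared did not overlap in 18 of the 45 tests against water and 16 of 45 between solutions. Overlap was not counted over all probe sets, so a lack of it is only a description here.

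Few probe sets of any kind passed against water before 5W. Against water, 0% of all probe sets were called at 3W with each solution. At 4W the shares called were 0.0484% with GSSG, 0.00440% with GSH and 0.0132% with NH4NO3. At 5W they were 0.220%, 1.49% and 2.22% in the same order. Over the mean of harvests they were 0.00440%, 0.259% and 0.484%. These shares depend on the fit: with a replicate block they rest on 156 called probe sets in place of 11 for GSSG at 4W, and at 5W on 181 in place of 50, 897 in place of 338 and 1080 in place of 504. With only the compared arrays in the fit the 5W counts were 0, 79 and 227.

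**Figure D1:**
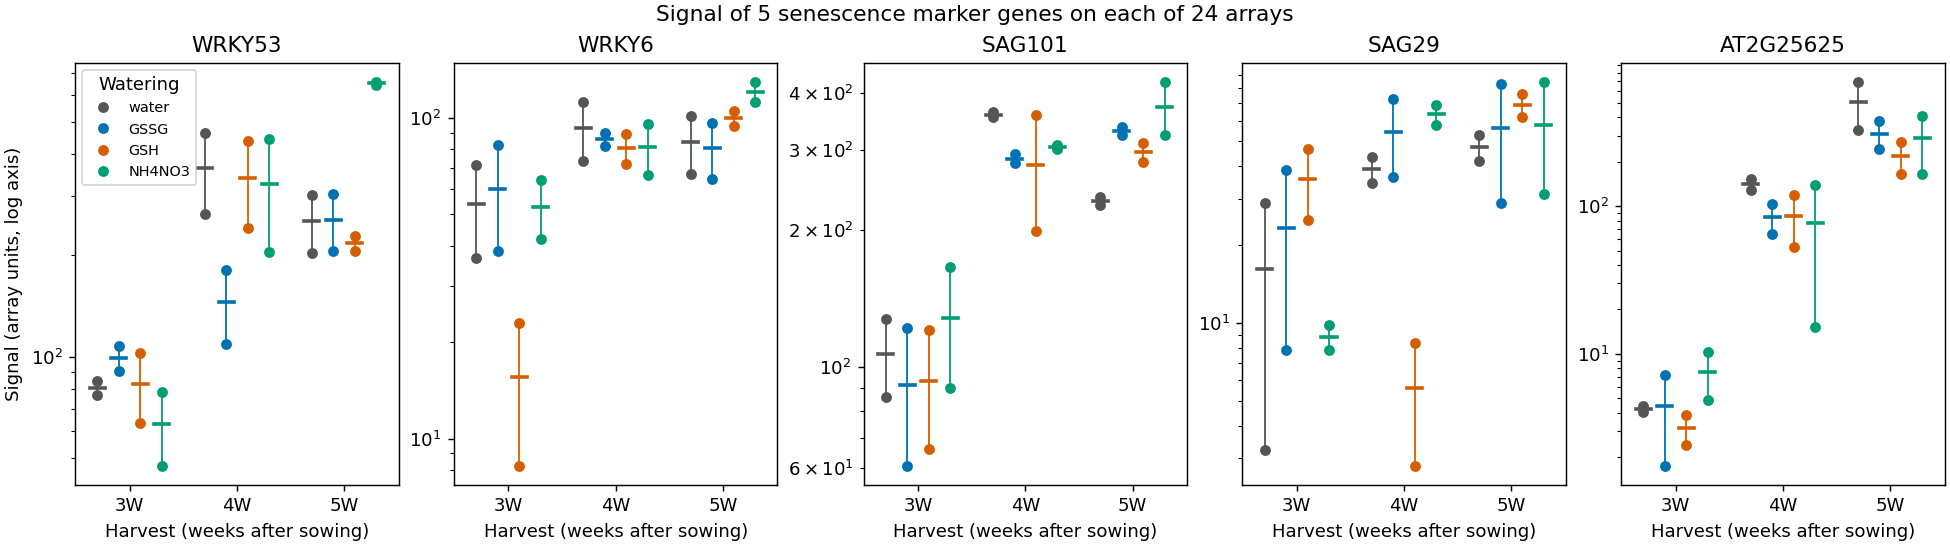
Signal of each of the 5 genes on every array (vertical axis, log scale, intensity units) at 3W, 4W and 5W after sowing, coloured by watering, with 1 point per array, a bar at the group mean and a line joining its arrays. AT2G25625 (CV) lies between 1.76 and 10.3 at 3W and between 164 and 690 at 5W, and the 2 WRKY53 points near 650 at 5W are the NH4NO3 arrays.

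WRKY53, an early positive regulator of senescence, was low in 3W aerial parts and higher in every blade sample. At 3W its signals were 84.7 and 76.9 with water, 90.8 and 107 with GSSG, 102 and 63.5 with GSH, and 78.7 and 47.4 with NH4NO3. At 4W they were 265 and 462 with water, 109 and 181 with GSSG, 242 and 438 with GSH, and 446 and 205 with NH4NO3. The 5W signals were 204 and 302 with water, 305 and 206 with GSSG, 206 and 229 with GSH, and 656 and 645 with NH4NO3. All 8 arrays of 4W lay above all 8 of 3W, the GSSG arrays were the lowest of 4W, and the NH4NO3 arrays of 5W were the highest of all 24. Between 3W and 4W the gene rose by 1.56 ± 0.19 (SE; adjusted p = 4.50e-07), in a comparison that called 55.9% of all probe sets (26.3% of all as higher). From 4W to 5W the change over the waterings was 0.20 ± 0.19 (adjusted p = 0.484), and under NH4NO3 it was 1.06 ± 0.38 (adjusted p = 0.144).

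The highest WRKY53 level was in 5W blades of NH4NO3-fed plants, at a mean signal of 650 ± 7.81 (SD, n = 2) against 253 ± 69.8 with water. The difference was 1.33 ± 0.38 (adjusted p = 0.0765), which did not pass, and 2.22% of all probe sets did. It passed when probe sets under the 40th percentile of signal were left out (adjusted p = 0.0468), with a pseudocount of 64 in place of 16 (adjusted p = 0.0488) and with a replicate block (adjusted p = 0.0483). Leaving out any of the 4 arrays gave adjusted p between 0.170 and 0.314. Against the glutathione-fed plants of 5W the NH4NO3 group also had the higher arrays, without overlap, which was not counted over all probe sets. GSH minus NH4NO3 was -1.52 ± 0.38 (adjusted p = 0.252), and GSSG minus NH4NO3 was -1.32 ± 0.38 (adjusted p = 0.348).

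At 4W the same gene stood lowest with GSSG, at 145 ± 51.1 against 364 ± 139 with water (n = 2 each). GSSG minus water was -1.22 ± 0.38 (adjusted p = 0.278), which did not pass. The change with NH4NO3 at 4W was -0.20 ± 0.38 and rests on which array is taken, since it was 0.72 without the 4 replicate 2 arrays of that harvest. The test of whether the effect of feeding differed between 4W and 5W gave 1.53 ± 0.54 for NH4NO3 (adjusted p = 0.421) and 1.24 ± 0.54 for GSSG (adjusted p = 0.707). Without those 4 arrays the NH4NO3 value was 0.62. Over the 5 genes and 3 solutions, 0 of 15 such differences passed, with 3 at an unadjusted p under 0.05, where 0.00879%, 0.154% and 0.171% of all probe sets passed for GSSG, GSH and NH4NO3.

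WRKY6, a transcription factor of senescence, defence and phosphate supply, was called between 3W and 4W and in no comparison with water. At 3W its signals were 36.5 and 71.5 with water, 38.4 and 82.1 with GSSG, 22.9 and 8.25 with GSH, and 63.9 and 41.8 with NH4NO3. At 4W they were 73.6 and 112 with water, 82.0 and 89.7 with GSSG, 71.96 and 88.9 with GSH, and 96.0 and 66.3 with NH4NO3. Those of 5W were 101 and 66.8 with water, 96.2 and 64.7 with GSSG, 94.2 and 105 with GSH, and 112 and 129 with NH4NO3. The GSH arrays of 3W were the lowest of the 24, and the NH4NO3 arrays of 5W the highest. The gene was higher in 4W blades than at 3W by 0.82 ± 0.20 (adjusted p = 0.00132), and the harvests overlapped, since the highest 3W array exceeded the lowest of 4W. From 4W to 5W it changed by 0.14 ± 0.20 (adjusted p = 0.661).

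Neither feeding difference of WRKY6 passed. At 3W its mean was 15.6 ± 10.3 with GSH against 54.0 ± 24.7 with water, a difference of -1.14 ± 0.40 (adjusted p = 1), and 1 of these GSH arrays lay at or below the trp control. The GSH arrays also lay below both arrays of GSSG and both of NH4NO3 at 3W. At 5W both NH4NO3 arrays lay above both water arrays, by 0.47 ± 0.40 (adjusted p = 0.684). These separations were not counted over all probe sets and are only a description.

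SAG101, the lipase-like protein, had similar signals at both blade harvests. At 3W its signals were 85.7 and 128 with water, 60.8 and 121 with GSSG, 66.1 and 121 with GSH, and 166 and 89.9 with NH4NO3. At 4W they were 353 and 363 with water, 280 and 293 with GSSG, 199 and 357 with GSH, and 307 and 300 with NH4NO3. At 5W they were 236 and 227 with water, 322 and 336 with GSSG, 311 and 281 with GSH, and 322 and 422 with NH4NO3. Every blade array lay above every 3W array. The rise from 3W to 4W was 1.45 ± 0.16 (adjusted p = 1.69e-07). Over the 4 waterings the change from 4W to 5W was -0.00 ± 0.16 (95% interval -0.34 to 0.34, adjusted p = 0.999).

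With water alone both 5W arrays of SAG101 lay below both 4W arrays (-0.60 ± 0.33, adjusted p = 0.284). At 5W all 6 fed arrays lay above both water arrays, a separation that was not counted over all probe sets. The differences from water were 0.48 ± 0.33 with GSSG (adjusted p = 0.843), 0.33 ± 0.33 with GSH (adjusted p = 0.760) and 0.64 ± 0.33 with NH4NO3 (adjusted p = 0.423). For the mean of the fed groups the difference was 0.48 ± 0.27 (adjusted p = 0.470), in a comparison that called 2.02% of all probe sets. The largest difference between the 5W and 4W effects of feeding was that of NH4NO3, 0.87 ± 0.47 (adjusted p = 0.738). None of these passed.

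**Figure D2:**
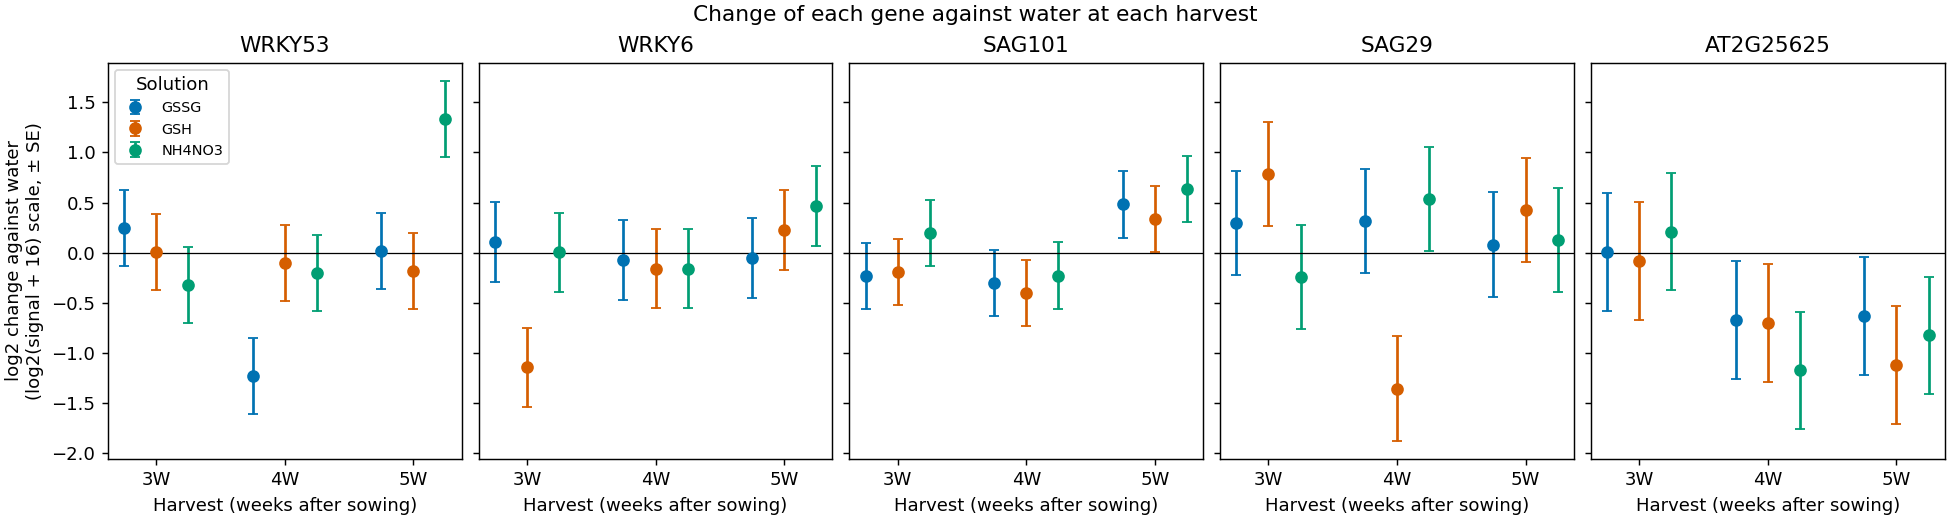
Change against water (vertical axis, log2(signal + 16) scale, ± SE) of each gene with GSSG, GSH and NH4NO3 at 3W, 4W and 5W. None of the 45 points passed the test, and the farthest above 0 is WRKY53 with NH4NO3 at 5W, at 1.33.

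SAG29, the sucrose transporter, gave low signals that differed widely between replicate arrays. At 3W its signals were 28.9 and 3.25 with water, 38.6 and 7.84 with GSSG, 46.6 and 24.9 with GSH, and 9.82 and 7.86 with NH4NO3. At 4W they were 34.5 and 43.3 with water, 36.4 and 72.6 with GSSG, 8.37 and 2.82 with GSH, and 58.0 and 68.9 with NH4NO3. The 5W values were 52.7 and 42.0 with water, 29.0 and 83.0 with GSSG, 76.2 and 61.9 with GSH, and 84.4 and 31.3 with NH4NO3. The GSH arrays of 4W were the lowest of the blades, below all other blade arrays. SAG29 exceeded the brightest trp control on 18 of 24 arrays, made up of 4 of 8 at 3W, 6 of 8 at 4W and 8 of 8 at 5W. The 2 arrays of 4W below it were the GSH arrays, where that control read 41.0 and 41.1, so SAG29 was not above background there.

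Under GSH, SAG29 rose from a mean of 5.59 ± 3.93 at 4W to 69.1 ± 10.1 at 5W (n = 2 each). That change, 1.98 ± 0.52 (adjusted p = 0.0339), was the only one of the 20 tests of leaf age within a watering to pass, where 4.34% of all probe sets passed under GSH, 2.03% as higher. The call rests on all 4 arrays, since without each in turn the adjusted p was between 0.108 and 0.201. It was also lost with a prior without intensity trend (adjusted p = 0.0507), with only the compared arrays in the fit (adjusted p = 0.181) and without the 4 replicate 2 arrays of 4W (adjusted p = 0.114). Because the 4W GSH signals were not above background, the size is no exact change, and it was 3.54 with a pseudocount of 1 and 0.93 with 64. Whether this change differed from that in water was tested directly and did not pass (1.78 ± 0.74, adjusted p = 0.505).

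At 4W both GSH arrays of SAG29 lay below every array of the other 3 waterings, a separation that was not counted over all probe sets. The fitted differences did not pass against water (-1.35 ± 0.52, adjusted p = 0.507), GSSG (-1.67 ± 0.52, adjusted p = 0.486) or NH4NO3 (-1.89 ± 0.52, adjusted p = 0.240), and with GSH at background their sizes depend on the pseudocount. The guard cell transcription factor FAMA, listed on the array as FMA, had its lowest blade mean in the same group, at 156 ± 4.58 against 197 to 277 in the other 7 blade groups. FMA was the only 1 of 4 phloem and guard cell markers that could be named, and its part in the SAG29 values was not tested. Over the waterings SAG29 changed by 0.49 ± 0.26 from 4W to 5W (adjusted p = 0.176) and by 0.56 ± 0.26 from 3W to 4W (adjusted p = 0.0738). The first passed after quantile normalization (0.66, adjusted p = 0.0465) and the second after centring on array medians (0.74, adjusted p = 0.0173) and in 3 of 16 fits that left out 1 array.

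CV, the chloroplast breakdown factor AT2G25625, went from background at 3W to clear signals at 5W. At 3W its 8 signals ran from 1.76 to 10.3 with a median of 4.23, and 0 of 8 exceeded the trp control. At 4W they were 129 and 153 with water, 65.1 and 103 with GSSG, 52.6 and 119 with GSH, and 15.2 and 138 with NH4NO3. At 5W they were 329 and 690 with water, 377 and 244 with GSSG, 164 and 272 with GSH, and 166 and 410 with NH4NO3. Every 5W array lay above every 4W array, and every 4W array above every 3W array. The rise from 4W to 5W over the waterings was 1.65 ± 0.29 (adjusted p = 0.000218), in a comparison that called 29.7% of all probe sets (16.1% of all as higher). It was called under every alternative tried, and leaving out single arrays gave 1.36 to 1.94 with adjusted p between 1.03e-05 and 0.00106. The rise from 3W to 4W was 2.28 ± 0.29 (adjusted p = 9.80e-07), and because the 3W signals are at background its size was 3.93 with a pseudocount of 1 and 1.16 with 64.

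In single waterings the 4W to 5W change of CV did not pass. It was 1.66 ± 0.59 with water (adjusted p = 0.0784), 1.702 ± 0.59 with GSSG (adjusted p = 0.0627), 1.24 ± 0.59 with GSH (adjusted p = 0.254) and 2.01 ± 0.59 with NH4NO3 (adjusted p = 0.0744). The background shares called were 10.6%, 12.5%, 4.34% and 2.43% in that order. The GSSG change passed under 6 alternatives, among them a replicate block (adjusted p = 0.0399). The NH4NO3 change passed with a replicate block (adjusted p = 0.0425) and without the 4 replicate 2 arrays of 4W, where it was 3.16 (adjusted p = 0.00734). It also passed without the replicate 2 array of 4W alone (adjusted p = 0.0106) and without the replicate 1 array of 5W (adjusted p = 0.0422), and single arrays left out moved it between 0.85 and 3.16. The water change passed with a pseudocount of 64 (adjusted p = 0.0261).

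All 6 fed means of CV in blades were below the water mean of their harvest. At 4W the differences from water were -0.67 with GSSG, -0.70 with GSH and -1.17 with NH4NO3, each with an SE of 0.59. At 5W they were -0.63, -1.12 and -0.82, with the same SE. Their adjusted p lay between 0.475 and 0.902, so none passed. Leaving out single arrays moved the NH4NO3 difference at 4W between -2.33 and -0.020. The NH4NO3 array of 4W at 15.2 was the 1 of 8 CV arrays of that harvest at or below the trp control. For the mean of the fed groups the difference was -0.85 ± 0.48 at 4W (adjusted p = 0.693), where 0.00879% of all probe sets were called, and -0.86 ± 0.48 at 5W (adjusted p = 0.474). These comparisons share the water arrays of their harvest, so the 3 differences of a harvest are not independent. Without the 4 replicate 2 arrays the 4W difference of the mean was -1.38, still with no call (adjusted p = 0.828).

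**Figure D3:**
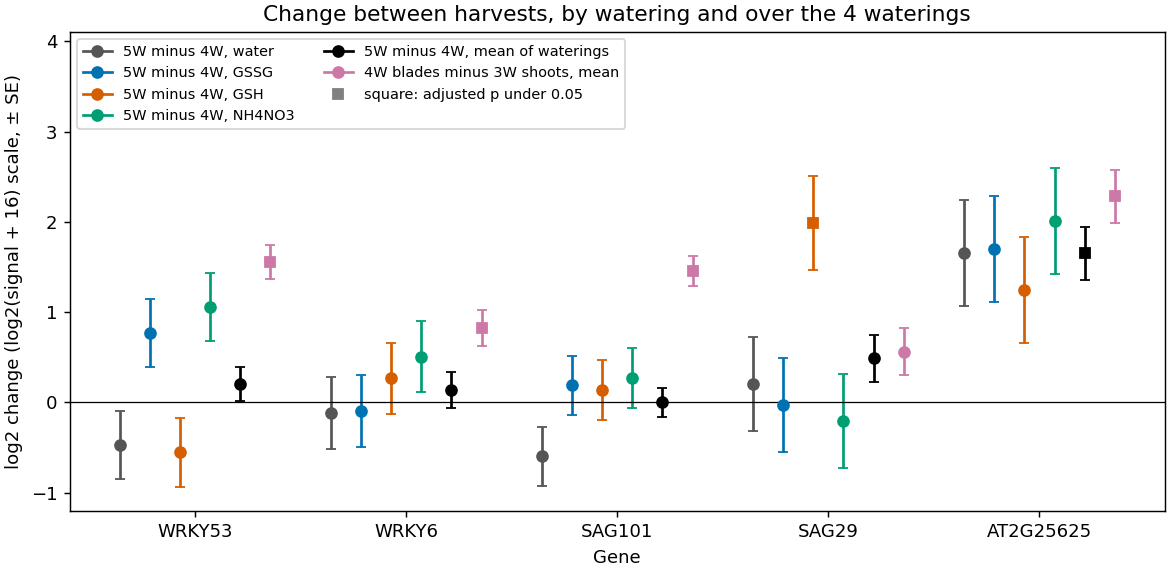
Change of each gene between harvests (vertical axis, log2(signal + 16) scale, ± SE), for 5W minus 4W in each watering and over the 4 waterings, and for 4W blades minus 3W aerial parts over the waterings. Squares passed the test and circles did not; AT2G25625 (CV) rose from 4W to 5W over the waterings by 1.65, and SAG29 under GSH by 1.98.

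Reduced and oxidised glutathione were compared at equal glutathione dose in 15 gene-by-harvest tests, and 0 passed, with 3 at an unadjusted p under 0.05. The share of all probe sets called for GSH against GSSG was 0% at 3W, 0.00879% at 4W and 0% at 5W. The shares at an unadjusted p under 0.05 were 2.90%, 6.77% and 3.93% in the same order. The 3 gaps were WRKY6 at 3W (-1.25 ± 0.40, adjusted p = 1), SAG29 at 4W (-1.67 ± 0.52, adjusted p = 0.486) and WRKY53 at 4W (1.12 ± 0.38, adjusted p = 0.525). For SAG101 the GSH minus GSSG difference at 5W was -0.15, with a 95% interval of -0.84 to 0.54. For CV at 5W it was -0.49, with an interval of -1.71 to 0.74. Such intervals leave room for differences in either direction, so a missed threshold does not show that the forms act alike. Over all 3 pairs of solutions and 3 harvests, 0 of 45 tests passed, with 8 at an unadjusted p under 0.05, and the smallest adjusted p was 0.240. In these comparisons 2.59% to 10.0% of all probe sets had an unadjusted p under 0.05. The shares of all probe sets called for GSH against NH4NO3 were 0.00440%, 0.185% and 0.0440% at 3W, 4W and 5W, and for GSSG against NH4NO3 0%, 0.211% and 0.0879%.

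The 12 groups were ordered by mean signal for each gene, and 0 to 4 of 11 neighbouring pairs were separated. Neighbours in such an order are close in mean by construction. The same count was not made over all probe sets, so nothing particular to these genes can be read from it. WRKY53 ran from 650 in 5W NH4NO3 blades to 63.0 in 3W NH4NO3 aerial parts, and 3 of its 11 neighbouring pairs of groups had arrays that did not overlap. WRKY6 ran from 121 in 5W NH4NO3 to 15.6 in 3W GSH with 2 of 11 such pairs, and SAG101 from 372 in 5W NH4NO3 to 91.1 in 3W GSSG with 3 of 11. SAG29 ran from 69.1 in 5W GSH to 5.59 in 4W GSH with 0 of 11. CV ran from 510 ± 256 in 5W water to 3.14 ± 1.02 in 3W GSH with 4 of 11. Thus 3 of the genes had their highest mean in 5W NH4NO3 blades, while CV had its highest in 5W water blades. The arrays of the highest group were clear of the next group for WRKY53 and WRKY6, and overlapped it for SAG101, SAG29 and CV. Levels of different genes cannot be set against each other, because each probe set has its own brightness.

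Other genes of the same processes were taken from 14 lists with 142 members, of which 39 had a probe set that could be named. Autophagy genes build the vesicles that carry cell contents to the vacuole, and 11 of 20 were measured. Of these 11, 0 passed in any of the 9 comparisons with water (0 of 99 tests, 7 at an unadjusted p under 0.05). In those comparisons 0% to 2.22% of all probe sets were called, and 2.22% to 13.2% had an unadjusted p under 0.05. From 4W to 5W over the waterings, 5 rose and 0 fell, where 29.7% of all probe sets were called and 16.1% were called higher. The list median was 0.21 against -0.01 over all probe sets. The ubiquitin-like ATG8B rose by 0.95 ± 0.17 (adjusted p = 0.000208) and ATG8G by 0.66 ± 0.09 (adjusted p = 1.84e-05). ATG8D rose by 0.43 ± 0.07 (adjusted p = 8.41e-05), and ATG3, the enzyme that attaches ATG8 to lipid, by 0.37 ± 0.10 (adjusted p = 0.00641). From 3W to 4W, 11 of 11 rose, where 55.9% of all probe sets were called and 26.3% were called higher, and the median was 0.74 against 0.03.

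From 4W to 5W over the waterings, 2 protease genes rose and 1 chlorophyll breakdown gene fell, where 29.7% of all probe sets were called. Of 3 measured senescence proteases, 2 rose from 4W to 5W over the waterings and 0 fell, against 16.1% of all probe sets called higher. Both also rose in each of the 4 waterings, where 10.6% (water), 12.5% (GSSG), 4.34% (GSH) and 2.43% (NH4NO3) of all probe sets were called, and ALPHA-VPE did not pass (-0.46 ± 0.35, adjusted p = 0.368). GAMMA-VPE, a vacuolar processing enzyme, went from group means of 8188 to 14479 at 4W to 25086 to 46468 at 5W, a rise of 1.77 ± 0.18 (adjusted p = 5.11e-07). The cathepsin B-like protease AT4G01610 rose by 0.81 ± 0.08 (adjusted p = 4.14e-07). Of 2 measured chlorophyll breakdown genes, AT1G44000, a STAY-GREEN-like gene, fell over the waterings (-0.97 ± 0.09, adjusted p = 1.57e-07) and in each of them. The other, NOL, did not pass (-0.04 ± 0.09, adjusted p = 0.816). PPDK, which serves in nitrogen remobilisation and was the only 1 of 11 in its list, rose by 0.81 ± 0.15 (adjusted p = 0.000411). The ethylene regulator EIN3 rose by 0.41 ± 0.08 (adjusted p = 0.000708), 1 of 2 measured senescence transcription factors. Against water, 0 of 27 protease tests, 0 of 18 chlorophyll breakdown tests, 0 of 18 transcription factor tests and 0 of 9 PPDK tests passed. At an unadjusted p under 0.05 there were 4, 2, 1 and 1 in that order, where 2.22% to 13.2% of all probe sets had such a p. Only 0% to 2.22% of all probe sets were called in these comparisons, so the absence of calls is not particular to these lists.

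SAG29 belongs to the SWEET sugar transporters, and 15 other members were measured. Against water 1 of 135 tests passed, that of SWEET1, a glucose transporter, which was lower with NH4NO3 at 5W (-1.30 ± 0.30, adjusted p = 0.0259). There 2.22% of all probe sets were called. From 4W to 5W over the waterings, 3 rose and 1 fell, with a median of -0.07. These 4 of 15 are close to the 29.7% of all probe sets called in that comparison. SWEET13, a sucrose transporter, rose by 1.40 ± 0.31 (adjusted p = 0.00152) and SWEET1 by 0.72 ± 0.15 (adjusted p = 0.00108). SWEET4 also rose (0.69 ± 0.17, adjusted p = 0.00333), and SWEET2 fell (-0.68 ± 0.24, adjusted p = 0.0362). Within single waterings SWEET1 rose in water, SWEET2 fell in water (-1.79 ± 0.47, adjusted p = 0.0186), and SWEET9 fell with GSSG (-1.50 ± 0.41, adjusted p = 0.0201). Both falls ended in dim signals, at 19.4 ± 23.5 for SWEET2 and 12.6 ± 11.4 for SWEET9, which had 63.9 ± 25.2 with GSSG at 4W. From 3W to 4W, 4 rose and 3 fell, with a median of 0.43, where 55.9% of all probe sets were called. The risers were SWEET11 (6.96), SWEET13 (4.66), SWEET4 (1.88) and AtVEX1 (0.76), and SWEET2, SWEET16 and SWEET17 fell. SWEET4, SWEET11, AtVEX1, SWEET16 and SWEET17 are named only to complete these counts, after their values were seen.

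WRKY6 belongs to WRKY group IIb, of which WRKY42 and WRKY47 were the other measured members, 2 of 7 listed. Neither passed against water (0 of 18 tests, 0 at an unadjusted p under 0.05), where 0% to 2.22% of all probe sets were called. From 4W to 5W over the waterings WRKY42 changed by -0.05 ± 0.29 (adjusted p = 0.919) and WRKY47 by -0.03 ± 0.16 (adjusted p = 0.906). Neither passed there, and 29.7% of all probe sets did. From 3W to 4W, WRKY42 rose by 0.82 ± 0.29 (adjusted p = 0.0195) and WRKY47 changed by 0.22 ± 0.16 (adjusted p = 0.238). In that comparison 55.9% of all probe sets were called, 26.3% as higher. WRKY42 was dim, with group means of 2.95 to 11.1 at 3W and 5.67 to 45.8 at 4W, so the size of its rise is uncertain. No member of the lists of WRKY group III, SAG101 partners, dark-inducible genes or other senescence-associated genes could be named here.

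The 3W to 4W comparison depends on how arrays are scaled. Centring arrays on their medians moved the median change of all probe sets from 0.03 to 0.21, and the share of called probe sets that were higher from 47.0% to 59.0%. Under that scaling WRKY53 rose by 1.74, WRKY6 by 1.00, SAG101 by 1.63 and CV by 2.46, and all were still called. Over the same comparison RCA rose by 1.44 ± 0.13 (adjusted p = 8.66e-09), FMA rose by 0.44 ± 0.11 (adjusted p = 0.00145) and CLV3 fell (-0.59 ± 0.23, adjusted p = 0.0358). CLV3 was dim in every group, with means of 2.45 to 23.1, so its fall gives no check of the apex. The part of tissue make-up in the rise of the senescence genes was not tested.

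**Figure D4:**
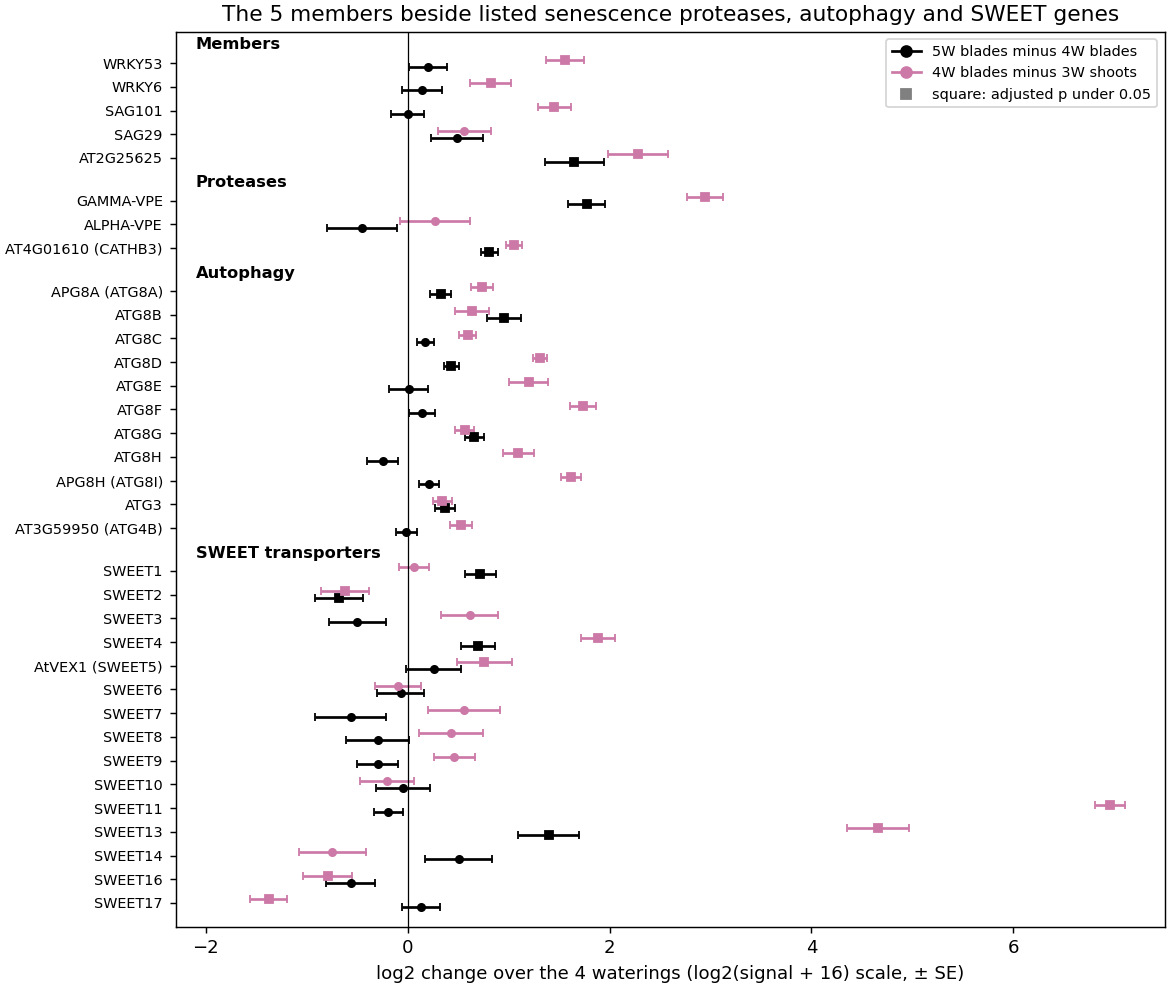
Change over the 4 waterings (horizontal axis, log2(signal + 16) scale, ± SE) of the 5 genes, 3 proteases, 11 autophagy genes and 15 other SWEET transporters, for 5W minus 4W blades (black) and 4W blades minus 3W aerial parts (pink). Squares passed the test; all 11 autophagy genes rose from 3W to 4W and 5 of them from 4W to 5W.

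The genes most like each marker over the 24 arrays were found by Pearson's correlation of log2(signal + 16) among genes above the 40th percentile of signal, as a description. The arrays share harvests, so a gene that differs between aerial parts and blades gives a high value. For CV they were AT1G21000 (0.976), the lipocalin TIL (0.974) and GAMMA-VPE (0.972), and within the 16 blade arrays the values were 0.931, 0.916 and 0.921. For SAG101 they were AT1G35350 (0.948), the multicopper oxidase LPR2 (0.945) and AT1G64850 (0.942), and in blades 0.499, 0.630 and 0.499. For WRKY53 they were AT2G39210 (0.928), AT2G18690 (0.919) and AT1G66880 (0.919), and in blades 0.842, 0.867 and 0.781. WRKY6 was most like AT4G28085 (0.815), AT1G78280 (0.815) and the tetraspanin TET8 (0.806), with 0.630, 0.566 and 0.497 in blades. SAG29 was most like AT5G27460 (0.757), FMA (0.725) and AT4G11300 (0.716), with 0.584, 0.661 and 0.441 in blades. Blade values of CV and WRKY53 were thus 0.781 or higher, and those of SAG101, WRKY6 and SAG29 were 0.661 or lower.

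Among themselves the 5 genes were more alike over all arrays than within blades. Over 24 arrays r was 0.806 between WRKY53 and SAG101, 0.790 between CV and SAG101 and 0.727 between CV and WRKY53. In the 16 blade arrays CV had r between 0.067 and 0.124 with the other 4 genes. WRKY53 and WRKY6 were the most alike in blades, at 0.562, followed by WRKY53 and SAG101 at 0.490. These values describe arrays that share harvests and waterings and carry no test.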

How the data were processed

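Total RNA from each of the 24 samples (100 ng) was amplified and labelled from the 3' end, per the labels' protocols. The deposited values are intensity, 1 signal per probe set and array on a linear scale, made with Affymetrix Expression Console per the submitters' processing notes; the summary algorithm is not given in the sources used here. From these, log2(signal + 16) was computed, 64 control probe sets were left out and 22746 were tested with no filter. Limma 3.58.1 in R 4.3.3 fitted 1 mean per group to all arrays (12 residual and 7.39 prior degrees of freedom, intensity trend), adjusted by Benjamini-Hochberg over all probe sets. Limma's steps were tested on simulated data. The 2 arrays per group limit the precision.

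Groups came from the sample titles. Genes were named by the platform annotation, updated to TAIR10.1: 13513 probe sets had 1 gene (13436 matched), 503 several and 8730 none here. The 5 genes, the 14 lists and the tests were chosen with earlier results of these data known. Up to 4 genes per list are named, those called against water or with leaf age with the largest change, otherwise the first 2 measured. The 3 genes most like each marker are named by correlation. Tried instead were quantile normalization, median centring, leaving out signals under the 40th percentile (which drops SAG29 and WRKY6), a pseudocount of 1 or 64, variance priors that were robust or had no trend, the replicate number as a block, fits to the compared arrays or to 4W and 5W, and each array left out. Leaving out the 4 replicate 2 arrays of 4W was added after seeing the data. Plots used Python 3.11.15 with pandas 2.3.3 and matplotlib 3.10.9.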

Additional observations from a re-analysis of the deposited data

How the results depend on the processing

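Of 590 values of 58 results under other settings, 567 kept their direction and side of the threshold, as did 350 of 380 with single arrays left out. Against water the count of calls went from 0 to 1 with the 40th percentile filter, a pseudocount of 64 or the replicate block, each time WRKY53 with NH4NO3 at 5W. With leaf age it went from 2 to 4 with a pseudocount of 64 or the replicate block and to 1 with a prior without trend, and single arrays left out gave 1 to 3. The signs of small, uncalled differences turned. WRKY53 with GSH against water at 4W was 0.00057 after median centring, and with NH4NO3 at 4W 0.72 without the 4 replicate 2 arrays. GSH minus GSSG at 4W was 0.085 for WRKY6 and 0.10 for AT2G25625 after quantile normalization, and 0.038 for AT2G25625 after centring. SAG101 from 4W to 5W was 0.11 without the 4 arrays. With single arrays left out, GSH minus GSSG at 4W ran from -0.52 to 0.46 for AT2G25625, from -0.49 to 0.30 for SAG101 and from -0.21 to 0.043 for WRKY6, and at 5W from -0.22 to 0.91 for SAG29 and from -0.46 to 0.069 for WRKY53. Against water WRKY53 ran from -0.51 to 0.31 (GSH) and -0.73 to 0.33 (NH4NO3) at 4W, and from -0.45 to 0.085 (GSH) and -0.25 to 0.28 (GSSG) at 5W. SAG101 from 4W to 5W ran from -0.10 to 0.10. The causes were not tested.

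The numbers of probe sets called at 5W moved by over 1.5 times: 50 with GSSG became 181 with the replicate block and 0 with only the arrays compared, 338 with GSH became 897 and 79, and 504 with NH4NO3 became 1080 and 227. At 4W the 11 with GSSG became 156 with the block. Same-numbered arrays deviated together, with correlations of 0.0389 to 0.248 at 3W (5 of 6 over 0.1), 0.230 to 0.381 at 4W and 0.108 to 0.385 at 5W. Within a harvest these arrays also share the second number of their titles, whose meaning is not given. With 2 pairs per comparison and no batch named in the labels, the correlations are a hint of pairing, not part of the design. The fit without the block was kept. Among the values that dim signals limit are those of SAG29, AT2G25625 at 3W, WRKY42, SWEET9 and CLV3.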
